A study of Mus musculus with 12 samples.

Results

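The comparison described here pooled every library whose oocytes had impaired Dpagt1 against every library whose oocytes had intact Dpagt1. The members were chosen by genotype alone: the 3 MUT and 3 GcKO libraries made up the impaired side (6 libraries), the 3 WT and 3 AmcKO libraries the intact side (6 libraries), and all 12 libraries of the series were used. MUT mice carry D166G, an ENU-induced missense mutation of Dpagt1 present in every cell of the body, so their granulosa cells carry it as well. GcKO mice are Dpagt1F/F with Gdf9CRE/+, a Cre recombinase expressed from the Gdf9 promoter, which is active in oocytes. AmcKO mice are Dpagt1F/F with Amhr2CRE/+, a Cre expressed in granulosa cells. By this design their oocytes keep Dpagt1 while the surrounding granulosa cells lose it, which was not checked here. WT mice carry neither a floxed allele nor a Cre. All females were labelled C57BL/6, 3 weeks old, and were primed with 5 IU of PMSG (a gonadotropin that stimulates follicle growth) 46 hours before 20 oocytes were pooled for each library. No Cre-negative Dpagt1F/F library was analysed here. The impaired libraries carry the label numbers 1 to 3 and the intact ones 4 to 6, so a batch following these numbers and the state of Dpagt1 cannot be told apart.

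DPAGT1 resides in the endoplasmic reticulum (ER) and attaches N-acetylglucosamine phosphate to the lipid carrier dolichol phosphate, the opening step of the pathway that builds the oligosaccharide for protein N-glycosylation. Secreted and membrane proteins of the oocyte, those of the zona pellucida among them, receive their N-glycans through this pathway. The fully grown oocyte at the germinal vesicle stage stores a large pool of maternal mRNA with little new transcription, and the proteins made from it support meiosis and the embryo before its own genome is active. When glycoproteins misfold in the ER, cells can raise chaperones through the unfolded protein response, and phosphorylation of eIF2α can raise translation of ATF4, a transcription factor for amino acid supply and tRNA charging genes.

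The sequence altered in MUT mice is shown because it defines 1 of the 2 ways in which oocyte Dpagt1 was impaired. Dpagt1 occupies chromosome 9, 44326019 to 44333900, plus strand, in GRCm38, and the mutated base, 44328161, belongs to the coding sequence of exon 3. In the reference transcript the 63 bases around codon 166, with the codon for the aspartate in capitals, are as follows.
Dpagt1 codon 166: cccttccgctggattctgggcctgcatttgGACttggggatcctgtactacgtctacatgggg
The substitution A497G, counted from the start of the coding sequence, makes the glycine codon GGC. Dpagt1 itself was listed at 0 FPKM (fragments normalized to transcript length and library size) in all 6 intact libraries, at 0.878, 0.408 and 0.985 FPKM in the MUT libraries and at 0, 0.366 and 0 FPKM in the GcKO libraries. An exact two-sided permutation test of 6 against 6 values gave p = 0.0606, where the smallest p this design allows is 0.00216. No library held a value above 0 for Rpl9 or Rpl28, ribosomal protein genes that every cell uses, so a listed 0 need not mean a lack of transcript. The values of Dpagt1 therefore did not serve as a check of the labels, and a missense mutation need not alter them.

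The libraries differed in scale along with the state of Dpagt1. FPKM values summed to 482314 to 684212 in the impaired libraries and to 883256 to 1226005 in the intact ones, without overlap (exact permutation p = 0.00216, the smallest possible). The 100 highest transcripts held 45.9 to 50.4% of the sum in impaired and 56.7 to 60.3% in intact libraries. Genes above 0 numbered 10733 to 11608 against 9359 to 10921 (exact permutation p = 0.00433). The files hold no counts, but the spacing of low values put the worth of 1 fragment, relative to MUT replicate 2, at 0.9 to 1.5 in the impaired libraries, 1.21 to 1.5 in AmcKO and 2.28 to 2.65 in WT, so low transcripts were measured less finely in WT. Of 8 oocyte markers all were detected on both sides, with sums of 5571 to 7805 FPKM (impaired) and 7983 to 10643 FPKM (intact). Of 15 granulosa cell markers, 4 (Foxl2, Amh, Amhr2 and Npr2) were at 0 in every library, and the list summed to 12.1 to 28.4 FPKM against 11.2 to 21.6 FPKM. The highest marker was Cyp19a1, which codes for aromatase, at 6.70 to 20.9 FPKM in impaired and 9.97 to 20.1 FPKM in intact libraries. It was lower in MUT (8.88 to 13.4 FPKM) than in WT (15.1 to 20.1 FPKM) and was not called in the pooled contrast. Of the 15 markers 6 were tested and 3 called. The markers Gja1 (2.02 FPKM at the median against 0), Inha (1.10 against 0) and Hsd17b1 (0.799 against 0) were nonetheless called higher in impaired libraries, with limma adjusted p of 0.000652, 0.00423 and 0.0216, and were highest in MUT. The part these cells, the fragment worth or the label number have in the results below was not tested.

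The main axis of variation set apart WT, AmcKO and the impaired side, but not MUT from GcKO. On principal component 1, which held 30.3% of the variance of log2(FPKM + 1), WT scored -47.0 to -45.2 and AmcKO -25.5 to -1.08. The MUT libraries, at 27.6 to 33.8, lay within the range of the GcKO libraries, at 13.2 to 43.9. The impaired and the intact side did not overlap on this axis. GcKO replicate 1, with the lowest FPKM sum, lay at one end, and the WT libraries, with the 3 highest sums, at the other.

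**Figure D1:**
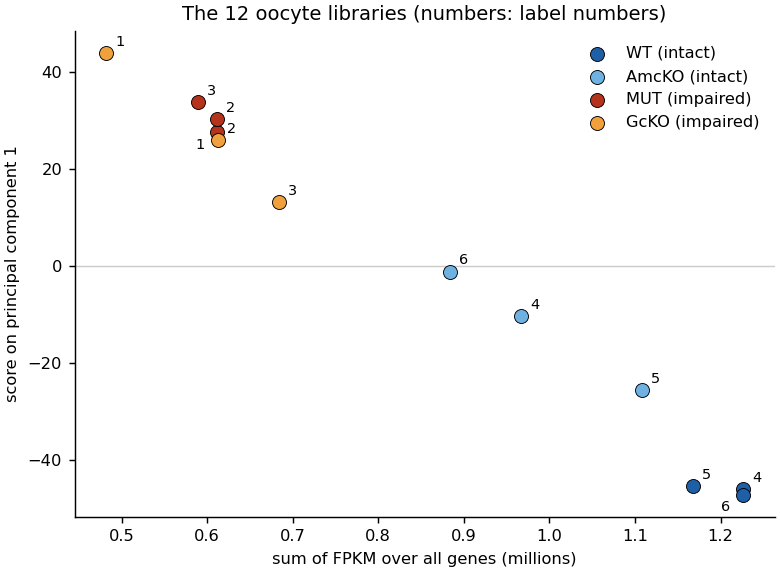
Score of each of the 12 libraries on principal component 1 of log2(FPKM + 1) (vertical axis, no unit) against its FPKM sum (horizontal axis). Points are libraries coloured by group and numbered as in the labels. The 6 impaired libraries have sums of at most 684212 and scores of at least 13.2, the WT libraries have scores of at most -45.2, and the AmcKO libraries lie between.

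Which transcripts differed between oocytes with impaired and with intact Dpagt1 was asked in a single limma fit, with a coefficient for each of the 4 groups. Of 11233 transcripts with at least 1 FPKM in some library, 2708 were called at an adjusted p under 0.05 (24.1%), 1471 lower (13.1%) and 1237 higher (11%) in impaired oocytes. Of these calls, 446 lower and 285 higher transcripts differed by more than 2-fold. The 4 groups allow 2 further contrasts of the same precision, built from the same libraries. The contrast of the Dpagt1F/F groups with the groups lacking a floxed allele gave 52 calls (0.463%), and 1276 transcripts at an unadjusted p under 0.05. The difference between the MUT change from WT and the GcKO change from AmcKO gave 3 calls (0.0267%), and 1174 transcripts at an unadjusted p under 0.05, against 4102 for the state of Dpagt1. The 3 contrasts held 57.3%, 22.6% and 20.1% of the squared differences between groups. Leaving out MUT replicate 1 or MUT replicate 3 lowered the calls of the floxed contrast to 26 or 30.

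The comparison divides into pairs of groups that share no library. Their calls came from 1 fit that takes the spread of each transcript from all 12 libraries, so the lists compared below are not independent. MUT against WT gave 2332 calls (20.8%), 1269 lower (11.3%) and 1063 higher (9.46%). GcKO against AmcKO gave 613 calls (5.46%), 538 lower (4.79%) and 75 higher (0.668%). Of the transcripts lower in MUT than WT, 458 were called lower in GcKO than AmcKO, which is 36.1% of the first list and 85.1% of the second. No transcript of this list was called in the opposite direction, and 94.4% had a lower value, against 44.3% of all transcripts. Of the transcripts higher in MUT than WT, 38 were called higher in GcKO than AmcKO, 3.57% of the first list and 50.7% of the second, and 2 were called lower. With the partners crossed, MUT against AmcKO gave 729 calls (6.49%), 570 lower (5.07%) and 159 higher (1.42%), and GcKO against WT gave 2264 calls (20.2%), 1286 lower (11.4%) and 978 higher (8.71%). The crossed pairs shared 462 falls, which is 81.1% and 35.9% of their lists, and 60 rises, 37.7% and 6.13%, while 7 of the falls and 6 of the rises in MUT against AmcKO were called in the opposite direction in GcKO against WT. Fitted on its own 6 libraries, GcKO against AmcKO gave 0 calls by limma with 2013 transcripts at an unadjusted p under 0.05, and without the WT group the pooled comparison gave 600 lower and 257 higher transcripts.

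The direction of a call went with the level of the transcript. Lower transcripts had a median mean level of 75.7 FPKM and higher ones 5.78 FPKM. Among the 275 transcripts with a mean of 500 FPKM or more, 90.2% were called lower and 0.727% higher, and their middle log2 fold change was -0.89. Among 607 transcripts from 100 to 500 FPKM the shares were 65.7% and 3.46%, and among 3630 from 1 to 5 FPKM they were 2.15% and 12.5%, and the median change was 0.27. Among transcripts of 100 FPKM or more, the medians of length classes lay between -0.75 and -0.63. The comparison was therefore repeated under scalings that treat abundance differently. Scaling every library to the same FPKM sum moved the median over all transcripts from 0.11 to 0.61 and gave 254 lower and 5704 higher calls. Cyclic loess, which sets transcripts against others of like abundance, brought the class medians to between -0.05 and 0.06 and left 1026 lower (9.13%) and 875 higher calls (7.79%), of which 862 and 585 had been called in the same direction before. It also turned 52 transcripts from called lower to called higher. A total of 215 transcripts were called lower, and 582 higher, with the values as deposited and under same-sum scaling, quantile normalization and cyclic loess alike.

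**Figure D2:**
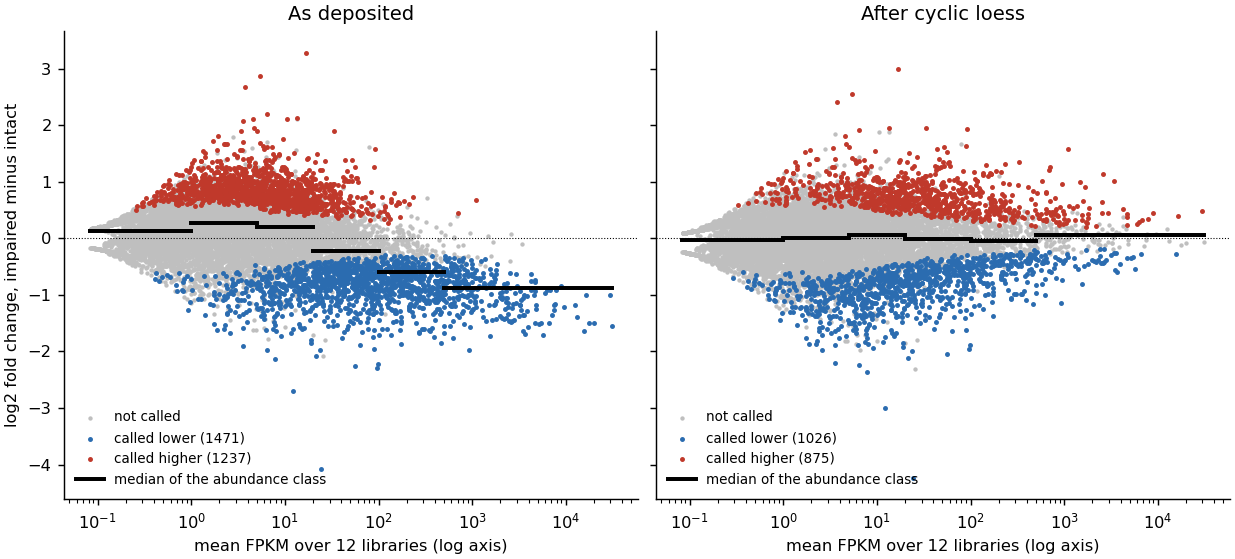
Log2 fold change of impaired against intact oocytes (vertical axis) for 11233 transcripts against their mean FPKM over 12 libraries (log axis), as deposited (left) and after cyclic loess (right). Blue points were called lower, red points higher, and black lines are medians of 6 abundance classes, which run from 0.13 for the rarest class to -0.89 for the most abundant class on the left and lie within 0.06 of 0 on the right.

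For 1167 transcripts the 6 impaired values did not overlap the 6 intact values (10.4% of those tested), 747 lower (6.65%) and 420 higher (3.74%). Among calls, 741 of 1471 lower and 406 of 1237 higher transcripts met this stricter condition, and 186 and 263 of these were called under all 4 scalings.

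Rpgrip1, which codes for a protein of the photoreceptor connecting cilium, had the largest fall among them. It ranged from 24.4 to 65.3 FPKM in intact oocytes with a median of 42.6, and from 0.00338 to 20.8 FPKM with a median of 0.352 in impaired oocytes. Its log2 fold change was -4.08 (SE 0.55, limma adjusted p = 0.000125), and the highest impaired value, in MUT replicate 3, lay close to the lowest intact one.

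Paip1, whose product binds the poly(A)-binding protein and stimulates translation, combined a large fall with a high level. Intact oocytes held 1288 to 1686 FPKM with a median of 1488, and impaired oocytes 274 to 456 FPKM with a median of 388. The log2 fold change was -1.97 (SE 0.12, limma adjusted p = 1.56e-06), with -1.80 in MUT against WT and -2.15 in GcKO against AmcKO. Relative to transcripts of like abundance it was still -1.15 (adjusted p = 9.12e-06), and under same-sum scaling -1.10 (adjusted p = 2.19e-06).

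Of the 8 largest falls, 4 were vomeronasal receptor genes on chromosome 7, Vmn1r112, Vmn1r139, Vmn1r157 and Vmn1r132. They belong to a family of closely related copies, so that fragments may be divided between them and the value of each is uncertain. Vmn1r112 ranged from 83.7 to 235 FPKM (median 162) in intact and from 12.4 to 51.3 FPKM (median 31.8) in impaired oocytes. Its log2 fold change was -2.29 (SE 0.18, limma adjusted p = 4.94e-06), and those of the other three were -2.25, -2.22 and -2.08. The intact groups did not overlap each other in Vmn1r112, where all WT values (198 to 235 FPKM) lay above all AmcKO values (83.7 to 127 FPKM).

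Cox17, a copper chaperone for cytochrome c oxidase, and Pcgf1, a Polycomb subunit, completed the 8 largest falls. Cox17 went from 87.2 to 240 FPKM (median 128) in intact to 14.8 to 55.7 FPKM (median 36.7) in impaired oocytes, a log2 fold change of -1.96 (SE 0.29, limma adjusted p = 0.000258). Pcgf1 went from 54.2 to 150 FPKM (median 92.0) to 16.6 to 43.7 FPKM (median 23.2), a log2 fold change of -1.89 (SE 0.25, limma adjusted p = 0.000124). All 8 of these falls were called lower under the 3 other scalings as well.

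The largest rises were in transcripts of low level. Wbp5, listed at 0 to 8.09 FPKM (median 5.88) in intact oocytes, reached 11.1 to 39.3 FPKM (median 15.4) in impaired oocytes, a log2 fold change of 2.12 (SE 0.39, limma adjusted p = 0.00143). This was 3.31 in MUT against WT and 0.94, not called (adjusted p = 0.399), in GcKO against AmcKO. Pex26, which anchors the peroxisomal import machinery, rose from 0 to 1.70 FPKM (median 0.967) to 3.41 to 7.78 FPKM (median 6.34), a log2 fold change of 1.90 (SE 0.24, limma adjusted p = 8.89e-05). Trim28, a corepressor that maintains imprints and silences transposable elements in the early embryo, rose from 0.946 to 3.24 FPKM (median 1.36) to 6.27 to 11.9 FPKM (median 7.80). Its log2 fold change was 1.89 (SE 0.23, limma adjusted p = 5.87e-05) and was close in both pairs, at 1.87 for MUT against WT and 1.92 for GcKO against AmcKO. Rnf19b, Fam69b, Sufu, Carkd and Fam220a followed with log2 fold changes of 1.62 to 1.70, and Sufu codes for a negative regulator of Hedgehog signaling. A single fragment weighed more in WT, where Wbp5, Pex26, Rnf19b, Sufu and Fam220a were at 0 in at least 1 library. All 8 were called higher under the 3 other scalings.

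**Figure D3:**
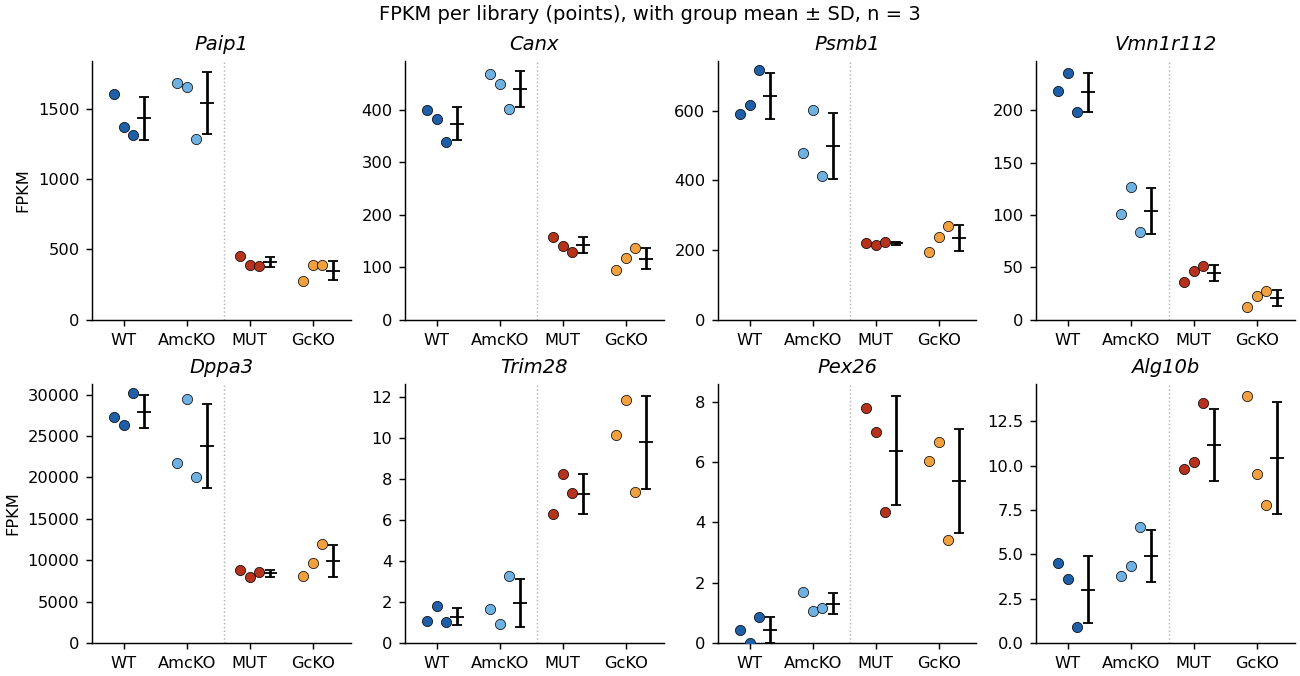
FPKM in each library (points, vertical axis) for 8 transcripts in the 2 intact groups (WT, AmcKO) and the 2 impaired groups (MUT, GcKO), with the group mean ± SD (n = 3) beside the points. In each panel all 6 impaired values lie on one side of the 6 intact values, below them for Paip1, Canx, Psmb1, Vmn1r112 and Dppa3 and above them for Trim28, Pex26 and Alg10b.

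The genes of N-glycan synthesis and transfer themselves were called in both directions, at shares near those of all transcripts. The list as drawn up held 32 tested entries, 6 lower (18.8%) and 5 higher (15.6%), against 13.1% and 11% of all transcripts, with a median of 0.13 against 0.11. One of the falls, 2010107E04Rik, is an older symbol of Atp5mpl, a gene of mitochondrial ATP synthase that does not belong to the pathway, and without it 31 genes of the dolichol pathway and the oligosaccharyltransferase had 5 falls and 5 rises (median 0.17). Dad1, a small subunit of the oligosaccharyltransferase, fell from 1066 to 1835 FPKM (median 1549) to 528 to 810 FPKM (median 669), a log2 fold change of -1.15 (SE 0.14, limma adjusted p = 5.37e-05). The change of Dad1 narrowed to -0.27 (adjusted p = 0.0263) against transcripts of like abundance. For 2010107E04Rik the log2 fold change was -1.08 (SE 0.17, limma adjusted p = 0.00051), and its call was lost after cyclic loess (adjusted p = 0.0705). Alg11, a mannosyltransferase, was lower by -0.90 (SE 0.20, limma adjusted p = 0.00446) at only 4.21 to 14.0 FPKM. Alg10b, a glucosyltransferase acting late in the pathway, went the other way, from 0.879 to 6.53 FPKM (median 4.05) to 7.80 to 13.9 FPKM (median 9.99), a log2 fold change of 1.34 (SE 0.26, limma adjusted p = 0.00227). The 5 rises fell to 2 without any of WT replicate 5, AmcKO replicate 5, MUT replicate 2 or MUT replicate 3, and to 3 without GcKO replicate 1 or 3. Of the 32 entries, 6 were lower and 4 higher in MUT against WT (11.3% and 9.46% of all transcripts). In GcKO against AmcKO 3 were lower and 0 higher (4.79% and 0.668% of all transcripts).

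Calls among ER chaperones and unfolded protein response genes were mostly higher, with 2 exceptions. Of 30 tested, 10 were higher and 2 lower (33.3% and 6.67%, against 11% and 13.1% of all transcripts), and the list median was 0.41. The larger of the 2 falls was that of Canx, coding for calnexin, the lectin chaperone that retains monoglucosylated glycoproteins in the ER. Canx held 338 to 468 FPKM (median 401) in intact and 95.6 to 158 FPKM (median 133) in impaired oocytes, without overlap. Its log2 fold change of -1.65 (SE 0.11, limma adjusted p = 1.81e-06) remained -1.06 (adjusted p = 9.93e-06) relative to transcripts of like abundance and -0.79 under same-sum scaling (adjusted p = 2.66e-05). Among the rises, the protein disulfide isomerases P4hb and Pdia4 changed by 0.80 (SE 0.18, limma adjusted p = 0.00506) and 1.17 (SE 0.29, adjusted p = 0.00921). Sel1l, a subunit of the ubiquitin ligase for misfolded ER proteins, went from 1.33 to 3.00 FPKM (median 2.70) to 4.05 to 6.97 FPKM (median 4.50), a log2 fold change of 0.82 (SE 0.20, limma adjusted p = 0.00868). P4hb changed by 1.49 in MUT against WT and by 0.11 in GcKO against AmcKO, whereas Sel1l changed by 0.84 and 0.80. Over the list the medians of the pairs were 0.53 and 0.20, with 6 members called higher and 1 lower in MUT against WT, and 0 higher and 2 lower, Canx and Manf, in GcKO against AmcKO. Without GcKO replicate 1, 6 members were called higher in the pooled contrast, and after cyclic loess 5 were.

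Calls among targets of ATF4 and the integrated stress response were mostly higher. Of 25 tested, 10 were higher and 1 lower (40% and 4%, against 11% and 13.1% of all transcripts), and the list median was 0.81. After cyclic loess 9 were called higher, against 7.79% of all transcripts, with a median of 0.58. The median was 1.00 in MUT against WT, with 13 members called higher and 1 lower (9.46% and 11.3% of all transcripts). In GcKO against AmcKO the median was 0.28, with 0 called higher by limma (0.668% of all transcripts). Fgf21, a hormone of the FGF family released by stressed cells, stood at 73.6, 49.3 and 77.2 FPKM in MUT, at 1.89, 0 and 0 FPKM in GcKO and at 0 in all 6 intact libraries. The pooled contrast called it higher (limma adjusted p = 6.57e-06), but only the MUT libraries and GcKO replicate 1 held any, and the difference between the pairs was called as well (adjusted p = 0.00107). Asns, asparagine synthetase, stood at 3.89, 6.02 and 4.85 FPKM in MUT, at 0.771, 0.722 and 0 FPKM in GcKO and at 0.601 FPKM in 1 of the 6 intact libraries (limma adjusted p = 0.000499). Atf4 itself ranged from 15.9 to 39.5 FPKM (median 26.6) in intact and from 28.1 to 122 FPKM (median 84.4) in impaired oocytes, overlapping through GcKO replicate 3. Its log2 fold change was 1.39 (SE 0.23, limma adjusted p = 0.000593), made up of 2.21 in MUT against WT and 0.57 in GcKO against AmcKO. Eif4ebp1, a translational repressor, changed by 2.94 in MUT against WT and by 1.44 in GcKO against AmcKO (pooled 2.19, SE 0.36, limma adjusted p = 0.000649). Apart from Fgf21, no member of the list was called in the test of the difference between pairs, so that a larger change in MUT was not shown for them one by one. Inha and Gja1, the granulosa cell markers named above, had their highest values in the same libraries, with 5.44, 1.13 and 5.44 FPKM and 3.30, 2.35 and 4.26 FPKM in MUT, and their part in this rise was not tested. Slc3a2 and Slc6a9, amino acid transporters, and Cebpg, a partner of ATF4 in DNA binding, also rose, by 0.96, 1.06 and 0.99 (limma adjusted p = 0.0021, 0.0065 and 0.00841), and the latter pair by 0.94 each in GcKO against AmcKO. Ddit3, the gene for CHOP, was not called, at 356 ± 90.8 FPKM in intact oocytes (SD, n = 6) and at most 387 FPKM in impaired ones (log2 fold change -0.38, SE 0.17, limma adjusted p = 0.122).

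**Figure D4:**
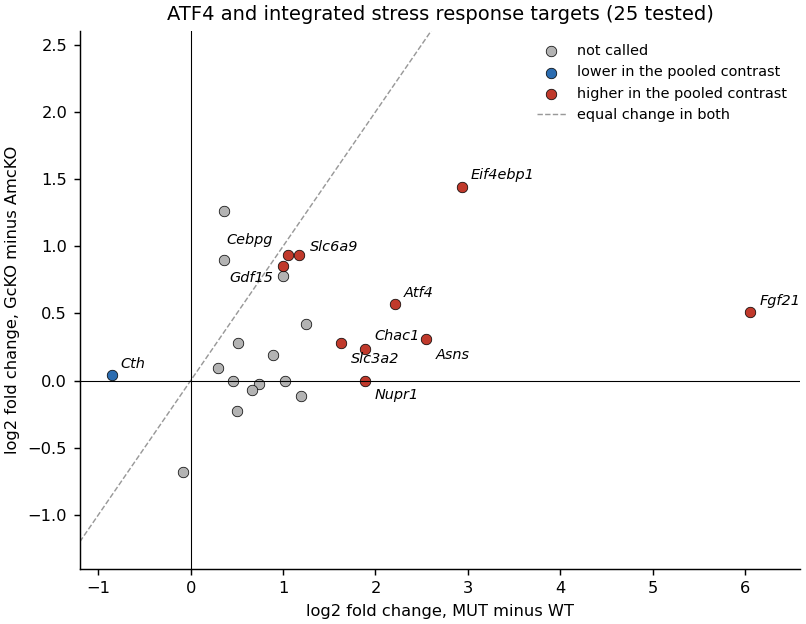
Log2 fold change of the 25 tested ATF4 and integrated stress response targets in MUT against WT (horizontal axis) and in GcKO against AmcKO (vertical axis), 2 comparisons without a shared library. Red points were called higher and blue points lower in the pooled contrast, and grey points were not called. Fgf21 lies at 6.05 and 0.51, and Eif4ebp1, Asns and Atf4 likewise lie below the dashed line of equal change.

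The cytosolic aminoacyl-tRNA synthetases, which load amino acids onto tRNA, showed 5 rises (27.8%, against 11% of all transcripts) and 0 falls among 18 tested, and the list median was 0.56. After cyclic loess 2 were called higher, with a median of 0.30. Nars ranged from 7.10 to 12.8 FPKM (median 11.3) in intact and from 13.1 to 22.3 FPKM (median 18.9) in impaired oocytes, a log2 fold change of 0.76 (SE 0.18, limma adjusted p = 0.00658). Gars changed by 0.95 (SE 0.24, limma adjusted p = 0.0105), with 0.829 to 3.28 FPKM against 3.78 to 8.12 FPKM, and was not called after cyclic loess (adjusted p = 0.0742). Iars, Eprs and Aars were the other three, at 0.60, 0.76 and 0.97. In the pairs the list had medians of 0.61 and 0.39, with 4 and 0 members called higher by limma (9.46% and 0.668% of all transcripts). Aars, at 1.74 and 0.21, was the least even of the 5 members called in the pooled contrast.

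The promoters of these lists were searched for the sequence TGATGNAAN on both strands, the form of element that ATF4 binds together with C/EBP proteins, in windows from 250 bases before to 50 bases after the transcription start (RefSeq, GRCm38.p6). It occurred in 6 of 22 ATF4 target promoters (27.3%) and 4 of 11 synthetase promoters (36.4%), against 285 of 8526 tested genes (3.34%) and 3.95% of all 32851 promoters. The lists hold genes known as ATF4 targets, so the share describes the lists and not the oocytes. Atf3, Slc7a11 and Tars, other tested members of the lists, held matches that are not shown. The matches of called members are shown (for Aars, 1 of 2), 61 bases each on the strand of the gene, with the match in capitals.
Fgf21, chr7:45615596-45615656, minus strand: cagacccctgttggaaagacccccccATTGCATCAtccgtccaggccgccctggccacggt
Asns, chr6:7693198-7693258, minus strand: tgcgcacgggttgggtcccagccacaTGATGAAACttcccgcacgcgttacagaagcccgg
Nupr1, chr7:126625547-126625607, minus strand: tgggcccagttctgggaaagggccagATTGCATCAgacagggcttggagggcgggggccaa
Chac1, chr2:119351022-119351082, plus strand: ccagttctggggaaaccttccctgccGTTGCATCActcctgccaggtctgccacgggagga
Aars, chr8:111033703-111033763, plus strand: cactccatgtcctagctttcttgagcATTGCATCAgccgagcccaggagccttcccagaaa
Gars, chr6:55037944-55038004, plus strand: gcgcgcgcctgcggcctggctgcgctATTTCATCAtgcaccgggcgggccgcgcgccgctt
Iars, chr13:49682110-49682170, plus strand: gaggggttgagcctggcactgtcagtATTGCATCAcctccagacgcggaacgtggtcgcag
A match was present in Fgf21 and Asns, with changes of 6.05 and 2.55 in MUT against WT and 0.51 and 0.31 in GcKO against AmcKO, and also in Gars and Iars, with 1.07 and 0.64 and with 0.83 and 0.55. No match was found for Atf4, Slc3a2, Eif4ebp1, Slc6a9, Cebpg, Nars or Eprs, all called higher. Only 22 of 25 tested ATF4 list members and 11 of 18 tested synthetases had a promoter that could be searched.

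COPI and COPII coat subunits, which form the vesicles between ER and Golgi, had 7 rises and 2 falls among 23 tested (median log2 fold change 0.34). These were 30.4% and 8.7%, against 11% and 13.1% of all transcripts. In MUT against WT 6 were called higher and 1 lower, and in GcKO against AmcKO 0 in either direction by limma. Of all transcripts, 9.46% and 0.668% were called higher in these pairs. Copa, a COPI subunit, rose from 1.43 to 4.09 FPKM (median 2.39) to 4.26 to 9.95 FPKM (median 5.28), a log2 fold change of 1.01 (SE 0.22, limma adjusted p = 0.00433). Copb1 changed by 0.64 and Sec31a, of the COPII cage, by 1.06, both without overlap between the sides. Sar1b, the GTPase that starts COPII assembly, was lower by -0.75 (SE 0.14, limma adjusted p = 0.0014) as deposited, at 212 to 378 against 357 to 603 FPKM, but had -0.06 after cyclic loess and 0.11 under same-sum scaling, neither called.

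Proteasome subunits were mostly lower. Of 34 tested, 19 were lower and 1 higher (55.9% and 2.94%, against 13.1% and 11% of all transcripts), and the median log2 fold change was -0.58. After cyclic loess 11 were still lower and 2 higher, with a median of -0.21, whereas under same-sum scaling the median turned to 0.22, below the 0.61 of all transcripts. Psmb1, a subunit of the catalytic core, ranged from 414 to 716 FPKM (median 596) in intact and from 196 to 270 FPKM (median 222) in impaired oocytes, a log2 fold change of -1.31 (SE 0.12, limma adjusted p = 1.03e-05). Psmb7, which carries the trypsin-like site, went from 256 to 403 FPKM (median 357) to 102 to 159 FPKM (median 126), a log2 fold change of -1.37 (SE 0.14, limma adjusted p = 1.93e-05). Both kept their call under every scaling, at -0.63 and -0.80 after cyclic loess and at -0.44 and -0.50 under same-sum scaling. In the pairs the list had medians of -0.77 and -0.36, with 17 and 5 members called lower.

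In other housekeeping families most calls were lower as deposited and the split was near even, or toward higher, after cyclic loess. Over all transcripts 13.1% were called lower and 11% higher as deposited, and 9.13% and 7.79% after cyclic loess. Oxidative phosphorylation subunits had 31 falls and 5 rises among 77 (40.3% and 6.49%, median -0.44). These became 11 and 11 after cyclic loess (median -0.04), and the median was 0.38 under same-sum scaling. Cox7a2l went from 595 to 1032 FPKM (median 906) to 304 to 449 FPKM (median 375), a log2 fold change of -1.15 (SE 0.12, limma adjusted p = 2.26e-05), and Cox7c from 83.1 to 131 FPKM (median 112) to 28.3 to 64.3 FPKM (median 36.4), a log2 fold change of -1.48 (SE 0.18, adjusted p = 6.45e-05). Both remained lower after cyclic loess, by -0.39 and -1.16. Atp5b and Atp5a1, which code for subunits of ATP synthase, were higher instead, by 0.98 (SE 0.14, limma adjusted p = 0.000181) and 0.67 (SE 0.13, adjusted p = 0.00197), without overlap. Mitochondrial ribosomal proteins had 26 falls and 4 rises among 76 (34.2% and 5.26%, median -0.22). After cyclic loess these were 8 and 13 (median 0.01, and 0.52 under same-sum scaling). Leaving out WT replicate 4 or 5, AmcKO replicate 5 or any MUT replicate lowered the 5 rises of oxidative phosphorylation to 3. The 4 mitochondrial ribosomal rises became 1 or 2 without WT replicate 6 or MUT replicate 1 or 3, or without any AmcKO or GcKO replicate. Mrpl42 fell from 74.8 to 119 FPKM (median 90.1) to 25.4 to 38.4 FPKM (median 33.1), and its log2 fold change of -1.48 (SE 0.15, limma adjusted p = 1.49e-05) stayed at -1.19 after cyclic loess. Mrps33 had -1.11 (SE 0.12, limma adjusted p = 2.16e-05) and lost its call after cyclic loess (-0.24, adjusted p = 0.0587).

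Cytosolic ribosomal proteins had 21 falls and 3 rises among 71 (29.6% and 4.23%, against 13.1% and 11% of all transcripts, median -0.25). After cyclic loess these were 9 and 9 (median -0.05, and 0.48 under same-sum scaling). Many have near-identical pseudogenes, so their values are uncertain. Rpl35 fell by 1.01 on the log2 scale (SE 0.11, limma adjusted p = 2.16e-05), from 476 to 761 FPKM (median 627) to 263 to 336 FPKM (median 298). The 3 rises became 1 without AmcKO replicate 5 or MUT replicate 3. Spliceosomal Sm and Lsm proteins had 10 falls (43.5%) and 0 rises among 23 (median -0.40). After cyclic loess these were 3 and 3 (median 0.04, and 0.47 under same-sum scaling). Lsm10 fell by 1.22 (SE 0.12, limma adjusted p = 1.48e-05), at 2750 to 3680 against 1111 to 1726 FPKM, and Snrpa1, a U2 snRNP protein, by 1.06 (SE 0.15, adjusted p = 0.000159). Against like abundance Lsm10 was at -0.19 and Snrpa1 at -0.68, both called. Under same-sum scaling Lsm10 was still called lower (-0.35) and Snrpa1 was not called (-0.20, limma adjusted p = 0.154).

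**Figure D5:**
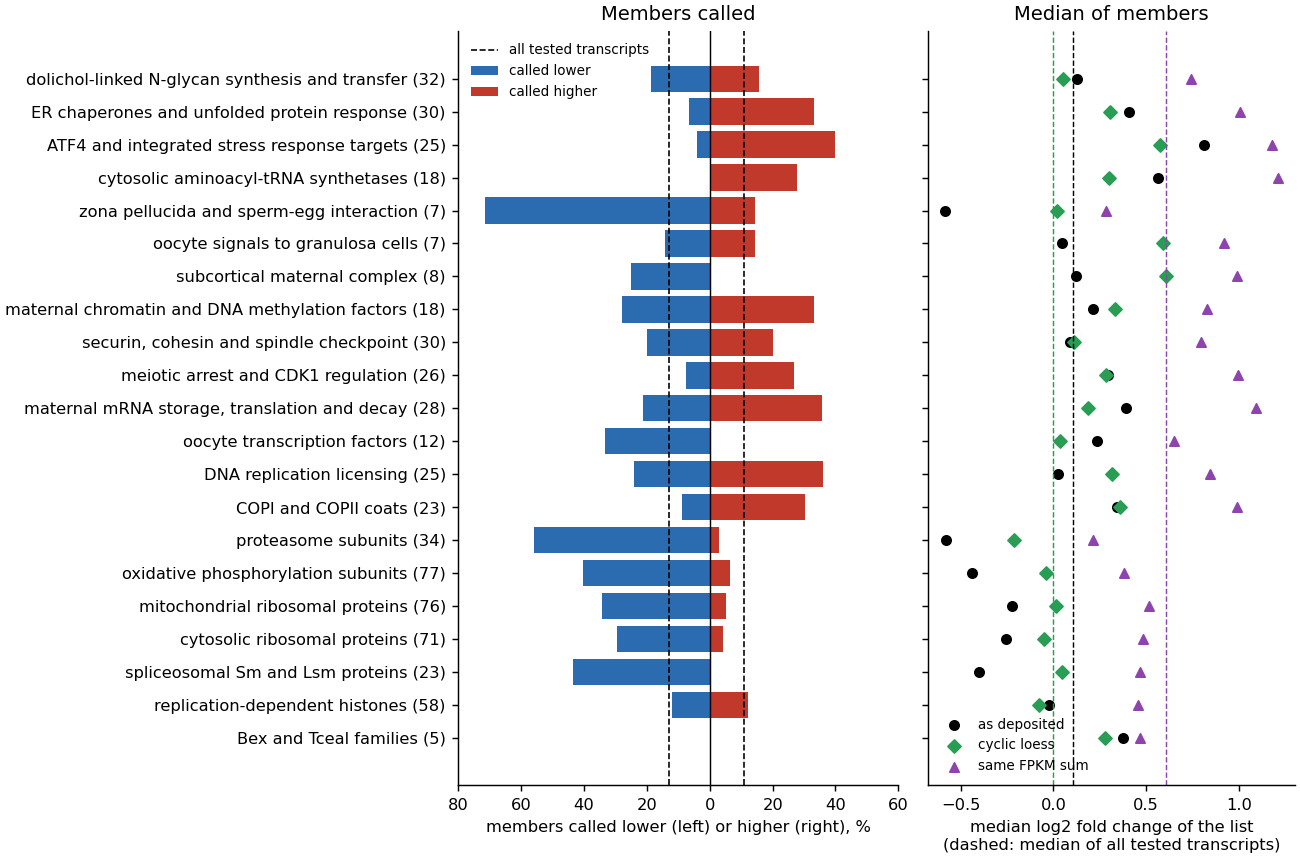
Left, percentage of tested members called lower (blue) or higher (red) in impaired oocytes for 21 gene lists, with the number tested in parentheses and dashed lines at 13.1% and 11% for all transcripts. Right, median log2 fold change of each list as deposited (circles), after cyclic loess (diamonds) and under same-sum scaling (triangles), with dashed lines at the medians of all transcripts. The dolichol list includes 2010107E04Rik and the Bex and Tceal list lacks Wbp5 and Ngfrap1. Proteasome subunits lie left of the dashed line under all 3 and ATF4 targets right of it.

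The 4 most abundant called transcripts were lower as deposited, and their change after cyclic loess was near 0 or above it. Of all 275 transcripts at 500 FPKM or more, 22.9% were called lower and 25.8% higher after cyclic loess. Among oocyte transcription factors, 4 of 12 were lower (33.3%, against 13.1% of all transcripts) and 0 higher (median 0.23). Obox2, an oocyte homeobox gene and the most abundant called transcript, held 32146 to 53924 FPKM (median 49306) in intact and 11305 to 18317 FPKM (median 16065) in impaired oocytes, a log2 fold change of -1.54 (SE 0.13, limma adjusted p = 7.24e-06). Obox1 had -1.50 (SE 0.14, limma adjusted p = 1.26e-05), and since Obox genes are close copies, their separate values are uncertain. After cyclic loess these were -0.06 and -0.09 and were not called, whereas under same-sum scaling they were -0.67 and -0.63 and still called (adjusted p = 2.19e-06 and 4.98e-06). Quantile normalization left Obox2 called lower (-0.24, limma adjusted p = 0.00518) but not Obox1 (-0.09, adjusted p = 0.274). Both lie far above 500 FPKM, a mean that only 275 transcripts reached, so few transcripts of like abundance were there to match them. The same holds for Dppa3 and Gm15698, described next. Dppa3, which protects maternal methylation in the zygote, fell from 20022 to 30143 FPKM (median 26828) to 7935 to 11960 FPKM (median 8664), a log2 fold change of -1.50 (SE 0.13, limma adjusted p = 8.34e-06) that was -0.11 and not called after cyclic loess but -0.63 and called under same-sum scaling (adjusted p = 5.9e-06). Gm15698, a predicted gene and with Obox2, Obox1 and Dppa3 among the 4 most abundant called transcripts, reversed, from -1.01 (SE 0.11, limma adjusted p = 3.98e-05) to 0.48 after cyclic loess (adjusted p = 0.00056).

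Chromatin factors stored for the embryo split by level. Of 18 tested, 5 were lower and 6 higher (27.8% and 33.3%, against 13.1% and 11% of all transcripts, median 0.21). H3f3b, a gene for histone H3.3, was lower by -1.17 (SE 0.12, limma adjusted p = 1.97e-05), at 1176 to 1898 against 2553 to 4796 FPKM, and was at -0.11 after cyclic loess, not called, and at -0.30 under same-sum scaling, called. Npm2, the nucleoplasmin that remodels sperm chromatin, fell by 1.13 (SE 0.13, limma adjusted p = 3.98e-05) and kept its call after cyclic loess (-0.44, adjusted p = 0.0013). The rises, besides Trim28, included Tet3, which oxidizes methylcytosine in the paternal pronucleus, at 1.06 (SE 0.15, limma adjusted p = 0.000238), and Ctcf, an architectural protein, at 0.85 (SE 0.17, adjusted p = 0.00226). Tet3 ranged from 23.5 to 50.6 FPKM (median 35.4) in intact and from 48.4 to 86.1 FPKM (median 81.4) in impaired oocytes, and Ctcf from 7.28 to 11.8 FPKM to 14.6 to 24.2 FPKM.

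The regulators of mRNA storage and decay were also divided. Of 28 tested, 6 were lower and 10 higher (21.4% and 35.7%, against 13.1% and 11% of all transcripts, median 0.39). After cyclic loess 2 were lower and 9 higher. Btg4, the adaptor that brings maternal mRNA to the deadenylase, went from 5972 to 7545 FPKM (median 6759) to 2475 to 3518 FPKM (median 2885), a log2 fold change of -1.19 (SE 0.11, limma adjusted p = 1.29e-05), but was at -0.02 after cyclic loess and at -0.32, still called, under same-sum scaling. Eif4e, the cap-binding translation factor, had -1.19 (SE 0.14, limma adjusted p = 4.68e-05) and was still lower after cyclic loess (-0.43, adjusted p = 0.00219). Cpeb1, which controls cytoplasmic polyadenylation, rose from 82.4 to 99.3 FPKM (median 96.4) to 121 to 149 FPKM (median 136), by 0.49 (SE 0.10, limma adjusted p = 0.00217), the opposite of most transcripts at its level. Zar1, a binder of stored mRNA, rose by 0.64 (SE 0.14, limma adjusted p = 0.00553), and Pan2, a deadenylase subunit, by 1.21 (SE 0.23, adjusted p = 0.00173).

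Meiotic and cell division genes followed the same division. Among securin, cohesin and checkpoint genes, 6 of 30 were lower and 6 higher (20% each, against 13.1% and 11% of all transcripts, median 0.09). Birc5 (survivin), a subunit of the chromosomal passenger complex, fell from 3826 to 5017 FPKM (median 4624) to 1773 to 2401 FPKM (median 2100), a log2 fold change of -1.09 (SE 0.10, limma adjusted p = 1.26e-05), with 0.00 after cyclic loess and -0.22, still called, under same-sum scaling. Esco2, which acetylates cohesin, had -0.94 (SE 0.09, limma adjusted p = 1.7e-05) and stayed lower by -0.21 after cyclic loess (adjusted p = 0.0479). Under quantile normalization (-0.16) and same-sum scaling (-0.07) Esco2 was not called (limma adjusted p = 0.142 and 0.425). Incenp, of the same complex as Birc5, was higher, from 1.58 to 5.05 FPKM (median 3.24) to 5.73 to 12.8 FPKM (median 8.59), by 1.22 (SE 0.21, limma adjusted p = 0.000792). The 6 rises of this list fell to 3 without AmcKO replicate 4, AmcKO replicate 5 or GcKO replicate 1 and to 2 without MUT replicate 3. By pair, 6 members were higher and 5 lower in MUT against WT, and 0 higher and 5 lower in GcKO against AmcKO. Of all transcripts, 9.46% and 0.668% were higher and 11.3% and 4.79% lower in these pairs. Among regulators of meiotic arrest and CDK1, 2 of 26 were lower and 7 higher (7.69% and 26.9%, median 0.29), 4 of them without MUT replicate 2. By pair, 5 of these regulators were higher and 2 lower in MUT against WT, and 0 higher and 1 lower in GcKO against AmcKO. Arpp19, an inhibitor of the phosphatase that opposes CDK1, had -0.98 (SE 0.15, limma adjusted p = 0.000287), and -0.50 after cyclic loess (adjusted p = 0.00488). Under same-sum scaling Arpp19 was at -0.12 and was not called (limma adjusted p = 0.351). Ccnb1, cyclin B1, had -0.65 (SE 0.12, limma adjusted p = 0.00144) as deposited, but 0.12 after cyclic loess and 0.22 under same-sum scaling. The phosphatase gene Cdc25a and the APC/C inhibitor gene Fbxo43 were higher without overlap, by 1.27 (SE 0.30, limma adjusted p = 0.00686) and 0.82 (SE 0.16, adjusted p = 0.00203).

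DNA replication licensing genes had 6 falls and 9 rises among 25 (24% and 36%, against 13.1% and 11% of all transcripts, median 0.02). After cyclic loess there were 3 of each (median 0.32). Orc5, of the origin recognition complex, had -0.90 (SE 0.14, limma adjusted p = 0.000412), with -0.12 after cyclic loess, and Gmnn, geminin, had -0.95 (SE 0.15, adjusted p = 0.000433), with -0.40 after cyclic loess (adjusted p = 0.0323). Neither was called under same-sum scaling (-0.03 and -0.08, limma adjusted p = 0.809 and 0.574). Mcm2 and Mcm6, of the replicative helicase, rose by 0.75 (SE 0.17, limma adjusted p = 0.00618) and 1.11 (SE 0.24, adjusted p = 0.00381), both without overlap, at 12.4 to 15.5 against 5.68 to 10.9 FPKM and 7.49 to 12.8 against 1.51 to 5.80 FPKM.

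The lists of zona pellucida and sperm-egg interaction, oocyte signals and the subcortical maternal complex each included falls. Of 7 tested zona pellucida and sperm-egg interaction genes 5 were lower and 1 higher (71.4% and 14.3%, against 13.1% and 11% of all transcripts). Their median was -0.59, but 0.02 after cyclic loess and 0.28 under same-sum scaling. Zp2, a zona protein that binds sperm, ranged from 125 to 191 FPKM (median 156) in intact and from 67.2 to 131 FPKM (median 89.7) in impaired oocytes, a log2 fold change of -0.75 (SE 0.14, limma adjusted p = 0.00195), and the sides overlapped through GcKO replicate 3. Izumo1r, the sperm receptor JUNO, went from 223 to 332 FPKM (median 273) to 136 to 220 FPKM (median 172), a log2 fold change of -0.66 (SE 0.13, limma adjusted p = 0.00241). Neither was called after cyclic loess (-0.29 and -0.08), and both were above 0 under same-sum scaling (0.11 and 0.21). The 1 rise, of Astl, was called only with all libraries or without AmcKO replicate 6 or MUT replicate 1. Of 7 genes for signals from the oocyte to granulosa cells, 1 was higher and 1 lower (14.3% each, median 0.05). Gja4, connexin 37 of the gap junctions with granulosa cells, rose from 71.7 to 147 FPKM (median 105) to 135 to 244 FPKM (median 187), by 0.80 (SE 0.19, limma adjusted p = 0.00718). Fgf8 had -0.53 (SE 0.16, limma adjusted p = 0.028), a call that was lost without any of WT replicates 4 and 5, AmcKO replicate 5, MUT replicates 1 and 3 or GcKO replicate 1 (adjusted p of 0.0677 to 0.0768). Gdf9 and Bmp15, the growth factors that drive cumulus cell function, were not called (log2 fold changes -0.41, SE 0.17, and 0.05, SE 0.13). Of the 8 subcortical maternal complex genes 2 were lower (25%) and 0 higher (median 0.12). These were Ooep, at -1.02 (SE 0.12, limma adjusted p = 6.34e-05), and Khdc3, at -0.91 (SE 0.19, adjusted p = 0.0037). Neither was called after cyclic loess (0.10 and -0.17). After cyclic loess, and likewise after quantile normalization, 0 members of this list were lower and 5 higher (median 0.61 after cyclic loess).

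Replication-dependent histones had 7 falls and 7 rises among 58 (12.1% each, close to the 13.1% and 11% of all transcripts; median -0.02). Hist1h2bg and Hist1h2be, both H2B genes, fell by 1.35 (SE 0.15, limma adjusted p = 3.31e-05) and 1.32 (SE 0.16, adjusted p = 6.13e-05) on the log2 scale, without overlap. The genes are near-identical copies, so their values are uncertain. The rises numbered 3 or 4 when any of WT replicate 4, AmcKO replicates 4 to 6, MUT replicate 2 or GcKO replicates 1 to 3 was left out. Of the Bex and Tceal families 7 members were tested and 1 was called higher, Wbp5, described above, which is an older symbol of Tceal9. Without Wbp5 and Ngfrap1 (Bex3), which the list drawn up for these families had missed, 5 were tested and 0 called by limma. Bex4 held 31.1, 8.07 and 17.7 FPKM in MUT but at most 7.92 FPKM in GcKO, against 0 to 11.4 FPKM in intact oocytes (log2 fold change 1.21, SE 0.56, limma adjusted p = 0.137). Bex2 was at 0 in all intact libraries and at most 1.29 FPKM in impaired ones (limma adjusted p = 0.227, but 0.015 without MUT replicate 1).

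For 3 transcripts the difference between MUT against WT and GcKO against AmcKO was called, and none of them followed the state of Dpagt1 across all 4 groups. Fgf21 was described above. Gm20319, an antisense transcript whose reads cannot be told from those of a sense partner without strand, stood at 4.97, 6.32 and 5.32 FPKM in WT and was listed at 0 in the other 9 libraries (limma adjusted p = 0.0141 for the difference). 4930405A21Rik stood at 64.5, 51.0 and 45.6 FPKM in WT, at 11.1 to 15.9 FPKM in AmcKO, at 10.1 to 11.9 FPKM in MUT and at 16.9 ± 7.02 FPKM (SD, n = 3) in GcKO (limma adjusted p = 0.0284 for the difference, a call lost in 11 of the 12 fits that left out a library). The pooled contrast called both lower in impaired oocytes, although AmcKO, an intact group, was as low as the impaired groups. Gm6083 had the next smallest p and was not called for the difference (limma adjusted p = 0.0601). It followed the state of Dpagt1, at 147 to 291 FPKM (median 221) in intact and 56.9 to 139 FPKM (median 85.7) in impaired oocytes, a log2 fold change of -1.31 (SE 0.12, limma adjusted p = 1.26e-05).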

How the data were processed

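Libraries of 20 germinal vesicle oocytes were amplified by Smart-seq2. The library kit is given differently in 2 of the labels' texts. The submitters' processing notes name TopHat2 2.0.13, Cufflinks 2.2.1, Cuffnorm and Cuffdiff on mm10, and the annotation was not given in the sources used here. The authors deposited 1 FPKM value per gene and library for 24255 genes, with no counts. The log2 fold changes and p-values of 6 comparisons that the authors deposited beside them were not used. Groups came from the labels, and 0 library columns were left unmapped. No pair of libraries was identical. Labels do not say whether libraries came from separate females, so p-values measure the spread between these libraries.

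The 11233 genes (46.3%) that reached 1 FPKM in some library were analysed as log2(FPKM + 1), which understates changes of low transcripts, with limma 3.58.1 (variance trend, 1 coefficient per group, 8 residual degrees of freedom) in R 4.3.3. A call needed an adjusted p (Benjamini-Hochberg) below 0.05. Log2 fold changes are impaired minus intact, with standard errors (SE). The code was tested on simulated data. Fragment worth was read from ratios of low values, and lengths (95.6% of tested genes) came from GENCODE M21. Named were Dpagt1, the 8 largest rises and falls among called transcripts without overlap (predicted genes passed over: 5 falls, 0 rises), the 2 members of each list with the smallest p, the 4 most abundant, and the 4 with the smallest p for the difference between pairs. Membership of 2 lists was corrected after values were seen, and both versions are given. A transcript that this rule names is not reported here. Other list members and the promoter motif were chosen after values were seen. The members and lists were chosen with earlier results of these data known. Alternatives were another pseudocount (0.1), no filter, a mean FPKM of at least 5, same-sum, median-of-ratios and quantile scaling, no variance trend, a random replicate block, subsets of groups, calls past 2-fold, calls below an adjusted p of 0.01 and the omission of each library; cyclic loess was added after seeing the data. Python 3.11.15 with pandas 2.3.3 and matplotlib 3.10.9 was used for sequences and plots.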

Additional observations from a re-analysis of the deposited data

Results flagged for a closer look

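Each of the following was singled out because the change from WT to MUT and the change from AmcKO to GcKO differed by a limma interaction test, with the difference on the log2(FPKM + 1) scale. For Fgf21 it was 5.54, with 49.3 to 77.2 FPKM in MUT, 0 to 1.89 FPKM in GcKO and 0 in the intact libraries. For Gm20319 it was -2.70, and for 4930405A21Rik -2.53, both from values that were high in WT and not in AmcKO. The last was not called in 11 of the 12 fits that left out a library. Groups of 3 libraries are too small for a test of single outlying samples.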

How the results depend on the processing

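Under median-of-ratios scaling, a pseudocount of 0.1, no low-value filter, no variance trend and the state of Dpagt1 as the factor without groups, the total, lower and higher counts of the pooled contrast stayed within 1.5 times of 2708, 1471 and 1237. Same-sum scaling gave 5958 (254 lower, 5704 higher; 95.7% higher against 45.7%), a mean of at least 5 FPKM 810 higher (34.8% of its calls), MUT and WT alone 810 higher, and GcKO and AmcKO alone 0 by limma (0 lower, 0 higher; 2013 at an unadjusted p under 0.05). Without the WT group there were 857 (600 lower, 257 higher; 30% higher), past 2-fold 731 (446 and 285), and at an adjusted p under 0.01 1484 (454 higher). With single libraries left out the total ranged from 2094 (without GcKO replicate 1) to 2766, the lower from 1252 to 1513 and the higher from 842 to 1253. The contrast of floxed and other groups gave 80 under same-sum scaling and 26 to 62 with libraries left out; the difference between pairs gave 5 with no filter, 6 under quantile normalization and 2 to 6 with libraries left out. MUT against WT gave 4892 (same-sum), 1473 (quantile) and 1551 (cyclic loess), with 1449 (without MUT replicate 3) to 2397; GcKO against WT gave 5006, 1356 and 1452, with 1350 (without GcKO replicate 1) to 2325; MUT against AmcKO gave 2570 (same-sum) and 386 (no variance trend), with 296 (without MUT replicate 2) to 870; GcKO against AmcKO gave 2622 (same-sum), 250 (quantile), 199 (no variance trend) and 226 (cyclic loess), with 252 (without AmcKO replicate 4) to 752. The difference for Dpagt1 was 0.330 to 0.527 FPKM with libraries left out. Signs reversed under same-sum scaling for Zp2 (0.11), Izumo1r (0.21), Fgf8 (0.32), Ccnb1 (0.22) and Sar1b (0.11), under quantile normalization for Ooep (0.037), Birc5 (0.023), Ccnb1 (0.13), Sar1b (0.026) and Gm15698 (0.24), after cyclic loess for Ooep (0.10), Birc5 (0.0013), Ccnb1 (0.12) and Gm15698 (0.48), and in GcKO and AmcKO alone for Bex4 (-0.998), where Bex2 was at 0. The cause was not tested. Of 62 named transcripts, 43 kept direction and call after cyclic loess, 46 under same-sum scaling and 44 under quantile normalization.

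Label numbers did not pair the samples: deviations of same-numbered libraries correlated at -0.0413 to 0.0405 (6 pairs), those of others at -0.057 to 0.0706. A random replicate block gave 2770 calls (1493 lower, 1277 higher); a fixed block could not be fitted, since label number and state of Dpagt1 coincide. The worth of 1 fragment, relative to MUT replicate 2, was 2.28 to 2.65 in WT, so low values are coarser there.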
